A study of Mus musculus with 12 samples.

Results

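Genes whose symbols begin with Slc and a family number, nearly all of them solute carrier transporters, were followed through 12 RNA-Seq libraries of mouse small-intestinal tumor organoids in which SMAD4 was put back with doxycycline (dox). The members were all genes with such a symbol and a mean of at least 1 FPKM over the 6 libraries of each of 2 expression tables. FPKM counts the fragments of a gene after scaling for the length of its transcript and the total of its library. The rule kept 183 of 377 solute carrier symbols, and 11079 of all 24906 listed genes reached the same minimum. The symbol rule also takes in a few genes that are not transporters, among them the opposite-strand genes Slc36a1os and Slc7a6os, the adaptor Slc4a1ap and the scaffolds Slc9a3r1 and Slc9a3r2, and the counts hold them. Members were then named where the change with dox had the same sign in all 5 pairs of an induced and an untreated library of the same line, so the direction of the named members describes the choice and is not tested.

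The organoids were grown from tumors of Smad4KO; BRAFV600E/+ mice, in which Cre under the Villin promoter acts in the intestinal epithelium, and each number names 1 organoid line. Whether each line came from its own animal is not given in the sources used here. All were labelled as carrying pINDUCER-SMAD4, a lentiviral construct that makes SMAD4 when dox is present, so by the labels every group shared the lost Smad4 alleles, the activated Braf allele and the construct. Untreated libraries were compared after 48 h with libraries given 4 µg/mL dox. In BME, a basement membrane extract for 3D growth, lines 682, 700 and 889 each gave 1 untreated library, and lines 700 and 889 each gave 1 dox library. The sixth BME library, of line 682, has a treatment label that names doxycycline and adds mock in brackets. The title and genotype of that library read like those of an induced library, but its Smad4 and Id1 levels, given below, were not those of the induced libraries. The group sizes of the study in BME place it with the vehicle libraries, and it was used as a control here. Whether it carried the construct or a mock plasmid is not given in the sources used here. On tissue culture plastic, lines 560, 700 and 889 each gave 1 library of either treatment. Per the study, Cre was set off with tamoxifen in young adult mice and tumors were taken some months later.

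Solute carriers are membrane proteins that move amino acids, sugars, ions, metals, lipids, vitamins and nucleosides across a membrane, either down a gradient or coupled to an ion such as sodium or protons. In the intestine they absorb nutrients at the luminal face of the epithelium, pass them to the blood at the opposite face, and keep the pH and volume of the cell. Many sit inside the cell instead, among them the SLC25 carriers of the mitochondrion, the SLC35 carriers of the Golgi and several exporters of the lysosome.

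The sequences below are the promoters of 4 members, 3 taken by their smallest induced change and Slc35f6 added to them. The mock change took no part in picking the 3. Slc29a3, Slc37a3 and Slc31a2 had the largest smallest change among the members higher in all 5 pairs, and all 3 were also higher in the mock pair. Slc35f6 had a mean change of 1.39 on the log2 scale over the 5 pairs and a change of 0.08 in the mock pair. Each window runs from 250 bases before to 50 bases after the transcription start in RefSeq (build GRCm38.p6), and it is written 5′ to 3′ on the strand of the gene. Capitals mark CACGTG (an E-box read by MYC and TFE proteins), GGCGCC (a GC-rich SMAD motif) and CAGAC with its reverse complement GTCTG (the core SMAD box).
Slc29a3 (chr10:60752733-60753032, minus strand): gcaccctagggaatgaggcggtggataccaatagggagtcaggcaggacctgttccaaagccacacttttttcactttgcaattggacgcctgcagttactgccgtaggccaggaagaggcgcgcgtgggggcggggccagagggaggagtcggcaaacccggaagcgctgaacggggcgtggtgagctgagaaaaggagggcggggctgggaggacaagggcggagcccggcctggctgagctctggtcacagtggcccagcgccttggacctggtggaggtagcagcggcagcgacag
Slc37a3 (chr6:39377658-39377957, minus strand, the first of 2 windows): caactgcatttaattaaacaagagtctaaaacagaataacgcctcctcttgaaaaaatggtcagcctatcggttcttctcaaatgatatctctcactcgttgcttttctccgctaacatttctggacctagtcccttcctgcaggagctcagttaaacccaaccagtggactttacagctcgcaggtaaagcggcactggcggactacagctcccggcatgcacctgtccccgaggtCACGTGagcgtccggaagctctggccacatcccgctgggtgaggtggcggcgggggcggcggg
Slc31a2 (chr4:62286179-62286478, plus strand): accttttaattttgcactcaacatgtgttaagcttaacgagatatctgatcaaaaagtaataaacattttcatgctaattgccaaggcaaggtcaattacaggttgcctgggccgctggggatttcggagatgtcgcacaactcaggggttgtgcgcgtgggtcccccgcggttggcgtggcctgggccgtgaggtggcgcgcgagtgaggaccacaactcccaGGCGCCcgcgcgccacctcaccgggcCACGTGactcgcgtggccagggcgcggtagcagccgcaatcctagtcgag
Slc35f6 (chr5:30647689-30647988, plus strand): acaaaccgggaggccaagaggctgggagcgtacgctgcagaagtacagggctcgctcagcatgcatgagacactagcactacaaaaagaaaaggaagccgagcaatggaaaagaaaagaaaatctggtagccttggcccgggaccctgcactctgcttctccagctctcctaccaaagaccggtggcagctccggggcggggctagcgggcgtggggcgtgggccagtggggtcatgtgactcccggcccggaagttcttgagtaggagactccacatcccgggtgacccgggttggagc

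The windows of Slc29a3 and Slc35f6 held none of these letters, the printed window of Slc37a3 held 1 CACGTG, its other window held 1 GGCGCC and 2 CAGAC, and that of Slc31a2 held 1 CACGTG and 1 GGCGCC. RefSeq windows were matched by symbol for 135 of the 183 members, as 184 windows. CACGTG occurred on either strand in 26 of them (14.1%), in 10.3% of the 11197 windows of all genes at the same FPKM minimum, and in 5 of 28 windows (17.9%) of members higher in all 5 pairs. GGCGCC occurred in 31 of the 184 windows (16.8%) against 21.2%, and in 8 of the 28 (28.6%). CAGAC occurred in 93 (50.5%) against 46.9%, and in 12 of the 28 (42.9%). CAGAC is short, so that close to every second window holds it, and a match marks letters in a window and not a bound site.

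The libraries held 14521354 to 16349427 reads in BME and 16981120 to 21027925 on plastic, as rebuilt from the steps of the FPKM values, and 152 of 183 members had at least 100 reads in their lowest library. Smad4 had 6.23 to 8.88 FPKM in the 3 untreated BME libraries, 17.2 and 27.3 in the 2 dox libraries and 10.3 in the mock library, whose change from its own untreated library was 0.19 on the log2 scale. Id1, a direct BMP target, had 104 and 47.8 FPKM in the 2 BME dox libraries and 6.24 in the mock library. On plastic, Smad4 had 1.54 to 4.76 FPKM untreated and 18.1 to 73.6 with dox. All 8 epithelial markers reached 1 FPKM in both tables, whereas 0 of 9 fibroblast, 0 of 6 endothelial and 1 of 8 immune markers did. Vim, a mesenchymal gene in the fibroblast list, reached 21.6 FPKM in the dox library of line 889 on plastic, and Cd68, a macrophage gene in the immune list, had 38.7 FPKM there and 2.70 in its untreated partner. All 10 goblet and Paneth cell markers were higher with dox in the plastic pair of line 889, with a median change of 4.15, whereas their medians were -0.51 to -1.63 in the other 4 induced pairs and -2.55 in the mock pair. In bulk RNA, fewer cells of a type and less RNA per cell cannot be told apart. The part of these markers in the changes of the transporters was not tested.

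The members most abundant in these organoids were carriers of the inner mitochondrial membrane. Slc25a5, the ADP/ATP carrier of dividing cells, had a mean of 504 FPKM in BME and 319 on plastic, the highest level of any member in BME. Slc25a3, which brings phosphate into the mitochondrion, had means of 449 and 311 FPKM. Slc25a39, a carrier needed for mitochondrial glutathione, had means of 258 and 318 FPKM. These are levels per length within a table, and the tables were normalized separately, so that levels were not tested between BME and plastic.

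At the plasma membrane several carriers that feed and hydrate the cell were abundant. Slc12a2, the sodium-potassium-chloride importer NKCC1, ranged from 113 to 383 FPKM in BME and from 22.4 to 49.1 on plastic. Slc2a1, the glucose carrier GLUT1, ranged from 32.1 to 132 and from 146 to 265 FPKM. Slc3a2, the heavy chain that carries Slc7a5 to the membrane, ranged from 71.9 to 129 and from 95.1 to 194 FPKM. Slc16a3, a lactate exporter, had means of 44.4 and 62.0 FPKM. The metal importers Slc39a8, Slc39a1 and Slc39a4 had means of 89.4, 81.8 and 78.8 FPKM in BME and 66.2, 102 and 79.5 on plastic. Slc50a1, a sugar carrier of the Golgi and the plasma membrane, had means of 104 and 63.9 FPKM.

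Inside the secretory pathway, Slc35c1, which supplies GDP-fucose to the Golgi, had means of 84.8 and 67.5 FPKM, and Slc35b2, which supplies the sulfate donor PAPS, had means of 66.3 and 37.6. Slc44a2 and Slc44a4, of the choline transporter-like family, led the lipid group with 53.1 and 62.6 FPKM in BME, and the heme carrier Slc48a1 had 41.1. The group of organic cation and drug carriers was the lowest by its median, at 5.32 FPKM in BME and 1.40 on plastic. Slc22a21, Slc30a2 and Slc38a9 were the members closest to the minimum, with 1.06, 1.09 and 1.10 FPKM in the lower of their 2 tables. Slc16a11, Slc43a2 and Slc26a6 lay just outside, with 0.960, 0.891 and 0.885. A further 20 solute carriers reached 1 FPKM only in BME, 2 only on plastic, and 172 in neither table, of which 20 were at 0 in all 12 libraries.

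Changes with dox were computed as log2(FPKM + 1) of the dox library minus that of the untreated library of the same line, a scale that understates the change of low genes. Where 5 changes are listed, they are in the order BME line 700, BME line 889, plastic line 560, plastic line 700 and plastic line 889. In BME, 100 of 183 members were higher with dox in line 700 and 101 in line 889, that is 54.6% and 55.2% of the members beside 48.5% and 49.9% of all genes at the same minimum. On plastic the count was 106 in line 560, 122 in line 700 and 137 in line 889 (57.9%, 66.7% and 74.9%, beside 49.7%, 49.8% and 50.7% of genes). The median member change was 0.03 in both BME pairs and 0.22, 0.11 and 0.30 on plastic. In the mock pair 112 members were higher (61.2%, beside 46.7% of genes), with a median of 0.04. The members therefore leaned upward in each of the 6 pairs, the mock pair included, and most in the pair of line 889 on plastic. The median of the goblet and Paneth markers was 4.15 in that pair and -0.51 to -2.55 in the others.

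**Figure D1:**
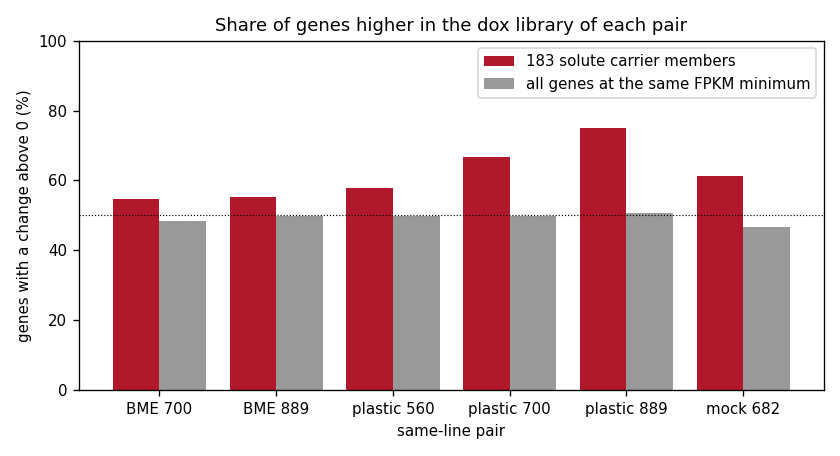
Bars show the percent of genes whose log2(FPKM + 1) was higher in the dox library than in the untreated library of the same line, for the 183 solute carrier members (red) and for 11079 genes at the same FPKM minimum (grey), in 5 induced pairs and the mock pair. The red bars run from 54.6% to 74.9% and the grey bars from 46.7% to 50.7%, and the red bar of the mock pair is at 61.2%.

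On plastic alone, 68 members (37.2%) were higher in all 3 pairs beside 18.6% of genes, and 18 (9.84%) were lower beside 18.6%. In BME, 66 (36.1%) were higher in both pairs beside 28.3% of genes, and 48 (26.2%) were lower beside 29.8%. Lines 700 and 889 were grown in both environments, so the 5 pairs come from 3 lines.

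Of the 183 members, 31 (16.9%) were higher with dox in all 5 induced pairs, beside 8.93% of genes at the same minimum, and 6 (3.28%) were lower, beside 8.19%. The other 146 had no single direction. The smallest of the 5 changes was at least 0.1 in 13 of the 31 and 4 of the 6, and under 0.1 in the remaining 18 and 2. In 26 of the 31, the mean change was larger on plastic than in BME. The same count over all genes was not made. Rises over 1 were also commoner on plastic among all genes, at 10.1%, 3.79% and 6.71% in lines 560, 700 and 889. In BME they were 1.46% and 2.26% in lines 700 and 889. The counts were 49 higher (26.8%, beside 16.8% of genes) and 12 lower (6.56%, beside 17.1%) without the pair of line 560 on plastic. Without that of line 889 on plastic 12 were lower (6.56%, beside 10.4%), and without that of line 700 in BME 10 were lower (5.46%, beside 11.0%).

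**Figure D2:**
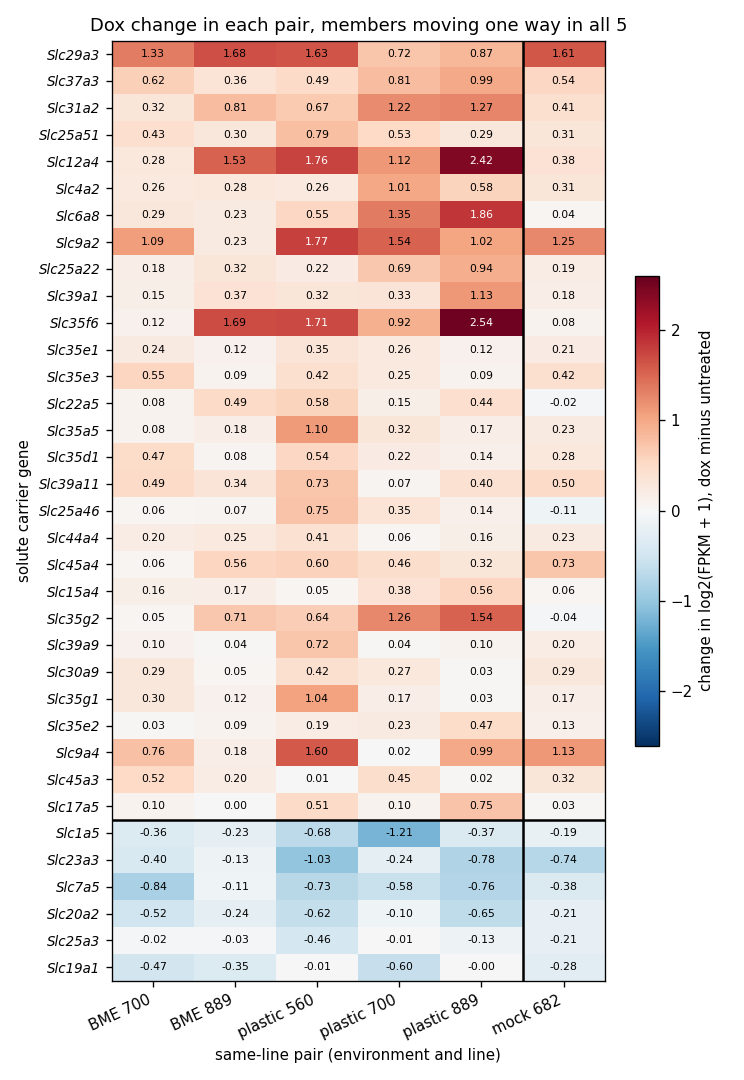
Each cell gives the change in log2(FPKM + 1), dox minus untreated of the same line, for 29 of the 31 members higher (top) and the 6 lower (bottom) in all 5 induced pairs, with the mock pair in the last column and rows ordered by their smallest change. Slc29a3 is strongly red in every column including mock (1.61), while Slc35f6, Slc6a8 and Slc35g2 are red on plastic and near 0 in mock (0.08, 0.04 and -0.04).

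The mock pair took no part in choosing these genes, and it moved the same way for most of them. Of the 31 members higher in all 5 pairs, 28 (90.3%) were also higher in the mock library than in its untreated partner, beside 79% of the 989 genes chosen by the same rule. All 6 lower members were lower in mock as well, beside 76.6% of 907 genes. In 26 of the 31 the mock change was at least as large as the smallest of the induced changes (83.9%, beside 55.8% of the 989 genes), and the same held for 5 of the 6 (83.3%, beside 63.2% of the 907). The smallest of 5 changes is a low bar, and it was under 0.1 in 18 of the 31 and 2 of the 6. The median mock change was 0.23 for the higher members, -0.24 for the lower members and 0.04 for all 183. The median induced changes of the higher members were 0.26, 0.23, 0.58, 0.33 and 0.47 in the order given above. Those of the lower members were -0.43, -0.18, -0.65, -0.41 and -0.51. The mock pair is 1 library against 1, with no replicate check.

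**Figure D3:**
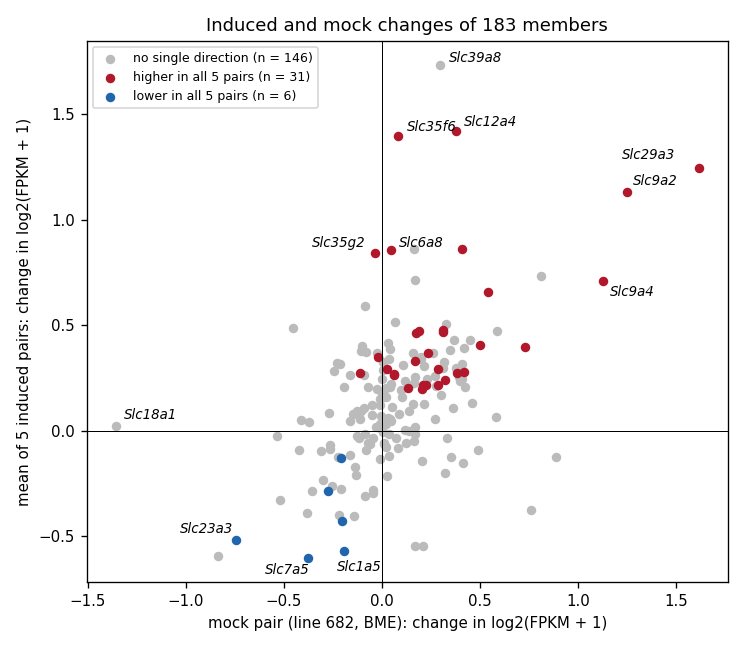
Each point is 1 of the 183 members, with its change in log2(FPKM + 1) in the mock pair on the x axis and the mean of its 5 induced changes on the y axis. Slc29a3, Slc9a2 and Slc9a4 lie far to the right (1.61, 1.25 and 1.13), whereas Slc35f6, Slc6a8 and Slc35g2 are high on the y axis but near 0 on the x axis.

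Slc29a3, the equilibrative nucleoside transporter of lysosomes and mitochondria, had the largest smallest change of any member and also the largest mock change. In BME its level went from 6.25 to 17.2 FPKM with dox in line 700 and from 8.14 to 28.4 in line 889, and from 7.40 to 24.7 in the mock pair of line 682. On plastic it went from 3.83 to 13.9 in line 560, from 8.06 to 13.9 in line 700 and from 7.44 to 14.4 in line 889. The dox libraries did not overlap the untreated libraries in either environment, and the mock library lay among the dox libraries of BME. Its changes on the log2 scale were 1.33 and 1.68 in BME, 1.63, 0.72 and 0.87 on plastic (mean 1.25 ± 0.44, SD, n = 5 pairs) and 1.61 in mock.

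Slc9a2 and Slc9a4 belong to the SLC9 family of sodium-proton exchangers, which set the pH of the cell, and both were higher in all 5 pairs. Slc9a2, the exchanger NHE2 of the apical membrane, had 11.1 and 13.1 FPKM untreated and 24.8 and 15.6 with dox in BME lines 700 and 889, and 7.94 and 20.2 in the untreated and mock libraries of line 682. Its plastic levels were 10.1, 24.8 and 18.6 FPKM untreated and 36.8, 74.0 and 38.7 with dox in lines 560, 700 and 889. The groups did not overlap on plastic, and in BME the mock library was above the dox library of line 889. Its changes were 1.09, 0.23, 1.77, 1.54 and 1.02 (mean 1.13 ± 0.59, SD, n = 5 pairs) with 1.25 in mock.

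Slc9a4, a basolateral exchanger, had changes of 0.76, 0.18, 1.60, 0.02 and 0.99 and 1.13 in mock. Its mock change was thus above 4 of its 5 induced changes.

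Ion carriers with a single upward direction also included Slc12a4 and Slc4a2. Slc12a4, the potassium-chloride cotransporter KCC1, had 4.26 and 0.564 FPKM untreated and 5.38 and 3.51 with dox in BME lines 700 and 889, with 0.694 and 1.20 in the untreated and mock libraries. On plastic it had 1.60, 11.7 and 3.25 FPKM untreated and 7.79, 26.5 and 21.7 with dox. Its untreated level differed between lines so widely that the untreated and dox groups overlapped in both environments, although every line was higher with dox. Its changes were 0.28, 1.53, 1.76, 1.12 and 2.42 (mean 1.42 ± 0.79, SD, n = 5 pairs) and 0.38 in mock. Slc4a2, the chloride-bicarbonate exchanger AE2, had changes of 0.26, 0.28, 0.26, 1.01 and 0.58, with 0.31 in mock.

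In a few members the mock change was close to 0. Slc35f6, an SLC35 member without an assigned substrate here, had 23.7 and 22.7 FPKM untreated and 25.8 and 75.5 with dox in BME lines 700 and 889, with 16.8 and 17.9 in the untreated and mock libraries. Plastic libraries held 24.3, 20.3 and 19.1 FPKM untreated and 81.7, 39.3 and 116 with dox. The dox libraries lay above all controls in both environments, and line 700 had the smallest difference in each. Its changes were 0.12, 1.69, 1.71, 0.92 and 2.54 (mean 1.39 ± 0.91, SD, n = 5 pairs) and 0.08 in mock.

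Slc6a8, the creatine transporter, had 45.8 and 19.2 FPKM untreated and 56.2 and 22.7 with dox in BME, and 21.6 and 22.4 in the untreated and mock libraries. On plastic it had 18.0, 30.0 and 20.6 FPKM untreated and 26.8, 78.3 and 77.5 with dox. The groups overlapped in both environments, since line 700 was high in BME without dox and line 560 was low on plastic with it. Its changes were 0.29, 0.23, 0.55, 1.35 and 1.86 (mean 0.86 ± 0.72, SD, n = 5 pairs) and 0.04 in mock. Slc35g2, a lesser-known SLC35 member, had changes of 0.05, 0.71, 0.64, 1.26 and 1.54 and -0.04 in mock. Slc22a5, the carnitine transporter OCTN2, and Slc25a46, an outer mitochondrial membrane protein, were the other 2 with a mock change below 0, at -0.02 and -0.11, beside induced changes of 0.08 to 0.58 and 0.06 to 0.75.

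Copper, zinc and cofactor carriers were also among the members with a single direction. Slc31a2, which handles copper in endosomes, had 7.31 and 6.10 FPKM untreated and 9.38 and 11.5 with dox in BME, with 7.47 and 10.2 in the untreated and mock libraries. The plastic libraries had 9.40, 12.1 and 14.8 FPKM untreated and 15.6, 29.7 and 36.9 with dox. The plastic groups did not overlap, whereas in BME the mock library was above the dox library of line 700. Its changes were 0.32, 0.81, 0.67, 1.22 and 1.27, with 0.41 in mock. Slc39a1, the zinc importer ZIP1, had changes of 0.15, 0.37, 0.32, 0.33 and 1.13, with 0.18 in mock. Its relatives Slc39a11 and Slc39a9 were also higher in all 5 pairs, with mock changes of 0.50 and 0.20. Slc30a9 had changes of 0.03 to 0.42 and 0.29 in mock. Slc25a51, which brings NAD into mitochondria, had changes of 0.43, 0.30, 0.79, 0.53 and 0.29, with 0.31 in mock.

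Slc37a3, of the sugar-phosphate exchanger family, had 15.4 and 15.3 FPKM untreated and 24.1 and 19.9 with dox in BME, with 18.4 and 27.2 in the untreated and mock libraries. Levels on plastic were 12.3, 13.0 and 11.4 FPKM untreated and 17.6, 23.5 and 23.7 with dox. The plastic groups did not overlap, and in BME the mock library was the highest of the 6. Its changes were 0.62, 0.36, 0.49, 0.81 and 0.99, with 0.54 in mock. Slc25a22, a mitochondrial glutamate carrier, had changes of 0.18, 0.32, 0.22, 0.69 and 0.94, with 0.19 in mock.

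A further 11 higher members each had a small change in at least 1 pair. They were the nucleotide-sugar carriers Slc35a5 and Slc35d1, the SLC35 members Slc35e1, Slc35e2, Slc35e3 and Slc35g1, the choline transporter-like Slc44a4, the sugar carriers Slc45a3 and Slc45a4, the lysosomal peptide carrier Slc15a4 and the lysosomal sialic acid exporter Slc17a5. Of the 3 families with more than 10 members, 8 of 22 SLC35, 3 of 11 SLC39 and 3 of 37 SLC25 members were higher in all 5 pairs, and 0, 0 and 1 were lower, beside 16.9% higher and 3.28% lower of all members and 8.93% and 8.19% of all genes at the minimum. Slc45a4 had a mock change of 0.73, above each of its 5 induced changes of 0.06 to 0.60.

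The 6 members lower in all 5 pairs included a pair of plasma-membrane carriers that supply the cell with neutral amino acids. Slc1a5, the glutamine transporter ASCT2, had 82.7 and 76.7 FPKM untreated and 64.0 and 65.4 with dox in BME lines 700 and 889, with 85.7 and 74.8 in the untreated and mock libraries. On plastic it had 42.9, 25.8 and 22.2 FPKM untreated and 26.4, 10.6 and 17.0 with dox. The dox libraries lay below all 4 controls in BME, whereas on plastic the groups overlapped. Its changes were -0.36, -0.23, -0.68, -1.21 and -0.37 (mean -0.57 ± 0.39, SD, n = 5 pairs) and -0.19 in mock.

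Slc7a5, the leucine transporter LAT1, had 31.0 and 32.3 FPKM untreated and 16.8 and 29.9 with dox in BME, with 33.8 and 25.8 in the untreated and mock libraries. On plastic it had 59.1, 64.9 and 85.5 FPKM untreated and 35.3, 43.2 and 50.3 with dox. The plastic groups did not overlap, and in BME the mock library was below the dox library of line 889. Its changes were -0.84, -0.11, -0.73, -0.58 and -0.76 (mean -0.60 ± 0.29, SD, n = 5 pairs) and -0.38 in mock. Its heavy chain Slc3a2 did not share this direction, with changes of 0.21, 0.44, -0.79, 0.43 and 0.34. In the amino acid group as a whole, 2 of 25 members were higher in all 5 pairs and 2 were lower, close to the 8.93% and 8.19% of all genes. Of all members, 16.9% were higher and 3.28% lower.

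Slc20a2, a sodium-phosphate importer, had changes of -0.52, -0.24, -0.62, -0.10 and -0.65, with -0.21 in mock. Slc23a3, an orphan of the vitamin C transporter family, had changes of -0.40, -0.13, -1.03, -0.24 and -0.78, with -0.74 in mock. Slc19a1, the reduced folate carrier, had changes of -0.47 and -0.35 in BME and -0.60 in plastic line 700, whereas those of plastic lines 560 and 889 were only -0.012 and -0.0024, with -0.28 in mock. Slc25a3, the mitochondrial phosphate carrier, had changes of -0.022, -0.031, -0.46, -0.0066 and -0.13, with -0.21 in mock, and 3 of these 5 are far below the spread of its level between lines.

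**Figure D4:**
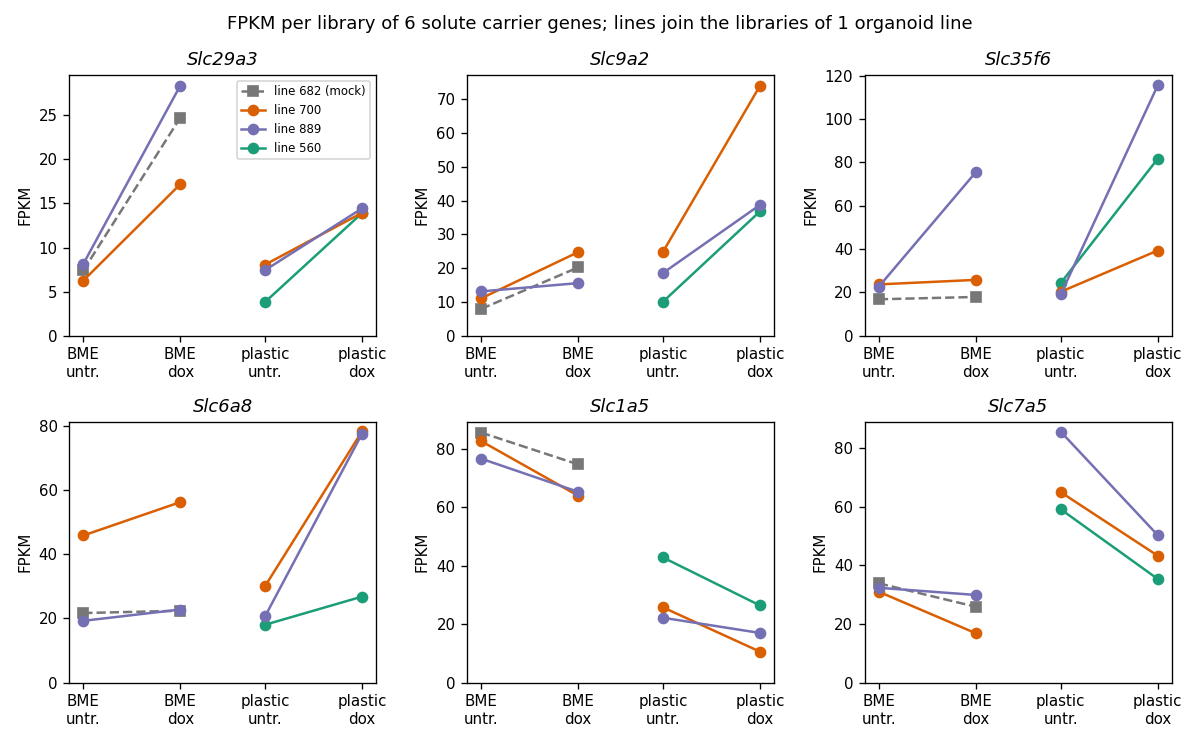
FPKM of 6 members in each of the 12 libraries, where a line joins the untreated and dox libraries of 1 organoid line and the dashed grey line is the mock pair. Slc29a3 goes up as steeply in the mock pair (7.40 to 24.7) as in the dox pairs of BME, Slc35f6 stays level in mock (16.8 to 17.9), and Slc1a5 and Slc7a5 go down in every pair.

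Across all genes, limma was used to test the change with dox in each environment, and a gene was called where its adjusted p was below 0.05 and its log2 change exceeded 1 in size. No member was called in BME, where 0.0231% of 12996 genes were called, or on plastic, where 0.0324% of 12333 were. The lowest adjusted p of a member was 0.959 in BME and 0.331 on plastic. At an unadjusted p under 0.05 and an absolute change over 1, there were 3 members in BME (1.64%, beside 0.954% of genes) and 8 on plastic (4.37%, beside 3.64% of genes), all higher, where 2.37% of genes were higher by that rule. On plastic these were Slc35f6, Slc26a11, Slc29a3, Slc9a2, Slc31a2, Slc6a8, Slc1a1 and Slc12a4, of which 6 are among the members described above. Without single libraries the plastic count was as low as 4 (dox of line 889, beside 2.53% of genes) and 5 (untreated of line 560 or 889, beside 3.56% and 2.95%), and the BME count was 0 (untreated of line 682, beside 0.577%), 1 (dox of line 889, beside 3.20%) or 5 (dox of line 700 or untreated of line 889, beside 1.96% and 2.07%). Slc35f6 was called by limma on plastic once the dox library of line 700 was left out (change 2.15, adjusted p = 0.0467), a fit that called 55 of 12364 genes (0.445%). Every dox library was above every untreated library on plastic for 34 members (18.6%, beside 7.82% of genes) and below for 5 (2.73%, beside 7.2%). In BME the counts were 12 above all 4 controls (6.56%, beside 6.86%) and 10 below (5.46%, beside 5.86%).

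The members at that unadjusted threshold in BME were chosen for mention after their values were seen. Slc12a8 had 37.9 and 38.0 FPKM untreated and 12.5 and 23.1 with dox in lines 700 and 889, with 48.1 and 26.5 in the untreated and mock libraries of line 682. The limma change was -1.07 (SE 0.31, adjusted p = 0.959), and its mock change was -0.83. Slc4a11, a member of the bicarbonate transporter family, had 10.3 and 6.47 FPKM untreated and 9.67 and 23.6 with dox, so that only line 889 was higher. The mean of the 4 controls was 5.60 FPKM, so the libraries of line 682 were lower on average. The limma change, fitted without pairing, was 1.45 (SE 0.56, adjusted p = 0.959). With 1 library left out it ranged from 0.85 to 2.05. The third was Slc35f6, with a limma change of 1.10 (SE 0.41, adjusted p = 0.959). With 1 library left out, the change of Slc35f6 ranged from 0.35 to 1.86 and that of Slc12a8 from -1.48 to -0.65.

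The limma difference between the plastic and BME changes called no member and no gene (0% of 11977). At an unadjusted p under 0.05 and an absolute difference over 1 there were 3 members, Slc26a11, Slc39a10 and Slc1a1 (1.64%, beside 1.33% of genes), each with the larger change on plastic and each named after its values were seen. Slc26a11, a sulfate and chloride carrier, had 2.21, 2.82 and 2.50 FPKM untreated and 4.74, 8.55 and 12.5 with dox on plastic, where the groups did not overlap. In BME its pair changes were 0.20 and -0.01, and the difference of the 2 fitted changes was 1.37 (SE 0.40, limma adjusted p = 1.00). Slc39a10, the zinc importer ZIP10, had a difference of 1.32 (SE 0.45, limma adjusted p = 1.00). Slc1a1, the glutamate transporter EAAT3, had a difference of 1.82 (SE 0.63, limma adjusted p = 1.00), with 0.0129 to 0.511 FPKM untreated on plastic and as few as 1 read in its lowest library.

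Opposite directions in the 2 environments were seen in a small set of members. Lower in both BME pairs and higher in all 3 plastic pairs were 10 members (5.46%, beside 2.64% of genes), Slc20a1, Slc25a32, Slc25a44, Slc30a5, Slc33a1, Slc35a3, Slc36a4, Slc38a2, Slc39a10 and Slc39a6. They include 3 zinc carriers (Slc30a5, Slc39a6 and Slc39a10), where 7 SLC30 and 11 SLC39 genes were among all members. Slc20a1 had BME changes of only -0.017 and -0.00076. Slc38a2, the amino acid carrier SNAT2, had changes of -0.23 and -0.18 in BME and 0.84, 0.00081 and 0.55 on plastic. The reverse order was found in 5 members (2.73%, beside 2.23%), Slc25a10, Slc25a17, Slc4a3, Slc9a3r1 and Slc9a3r2. The last pair are scaffolds of apical transporters that bind ezrin.

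Some members changed by a large amount in single lines and not in others. The range of the 5 changes had a median of 0.96 over the 183 members and was widest for Slc26a2, a sulfate carrier, at 4.23, then Slc39a8 at 4.21 and Slc4a4 at 3.97, which were named after their values were seen. Slc39a8, the zinc and manganese importer ZIP8, went from 10.3 to 203 FPKM in plastic line 889, from 22.6 to 151 in plastic line 560 and from 83.2 to 246 in BME line 889. In line 700 it went from 49.3 to 48.0 FPKM in BME and from 4.85 to 6.11 on plastic, and in the mock pair from 49.5 to 61.0. Lines 560 and 889 were therefore high with dox and line 700 was not. Slc26a2 had changes of 0.14, 0.93, 3.02, -1.21 and 0.79, and Slc4a4, the sodium-bicarbonate cotransporter NBCe1, had -0.71, -0.39, 1.96, -2.01 and 0.86.

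Slc7a11, the cystine importer xCT, and Slc44a1, a choline carrier, followed with ranges of 3.14 and 2.73 after the glutamate transporter Slc1a1 at 3.22. Slc7a11 had a change of 1.51 in plastic line 560 and -1.63 in plastic line 700. Slc18a1, the vesicular monoamine transporter VMAT1, shows how far the line can set a fitted value. It had 32.7 and 58.1 FPKM untreated in BME lines 700 and 889, 20.6 and 53.5 with dox, and 8.84 and 2.84 in the untreated and mock libraries of line 682. Its pair changes in BME were -0.64 and -0.12 and its mock change -1.36, whereas the limma change without pairing was 1.05 and the change with line as a block was -0.38.

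Among the substrate groups of at least 5 members, the ion and metal carriers had the highest medians of the mean plastic change, though not in every line. The median of the members' mean plastic changes was 0.40 for both 24 metal ion and 23 inorganic ion carriers, beside 0.24 for all 183 members, and 21 and 18 of them were above 0. In BME the same medians were 0.03 and 0.09, beside 0.04. In plastic lines 560, 700 and 889 the medians were 0.61, 0.20 and 0.43 for metal ion and 0.63, 0.05 and 0.46 for inorganic ion carriers. All members had 0.22, 0.11 and 0.30. In line 700 the nucleoside and nucleotide carriers (0.26) and the vitamin and cofactor carriers (0.25) were above both. In the mock pair the median was 0.15 for metal ion and 0.31 for inorganic ion carriers. Of the metal ion carriers 4 were higher in all 5 pairs and 0 lower, and of the inorganic ion carriers 6 and 2. These stand beside 16.9% higher and 3.28% lower of all members, and 8.93% and 8.19% of all genes.

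The other groups of that size had lower medians of the mean plastic change. Amino acid and peptide carriers had medians of -0.08 in BME and -0.01 on plastic, and the 5 carboxylate carriers 0.07 and -0.05. Among the 9 sugar and polyol carriers 3 were higher in all 5 pairs, although their median in BME was -0.04 (0.20 on plastic). The 12 nucleotide-sugar carriers held 2 higher members, the 9 lipid, choline and bile acid carriers 2, the 17 vitamin and cofactor carriers 1 higher and 1 lower, and the 11 nucleoside and nucleotide carriers only Slc29a3. The 8 organic cation, anion and drug carriers held none in either direction. The 35 unassigned members held 9 higher and 1 lower. These small counts stand beside 16.9% of all members higher and 3.28% lower, and 8.93% and 8.19% of all genes. By place in the cell, 12 of 76 plasma-membrane members were higher and 4 lower in all 5 pairs. There were 4 and 0 of 24 in the ER or Golgi, and 4 and 0 of 14 in lysosomes or vesicles. Mitochondria held 2 and 1 of 31. The same shares of members (16.9% and 3.28%) and genes (8.93% and 8.19%) apply beside them. No list was tested as a list.

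**Figure D5:**
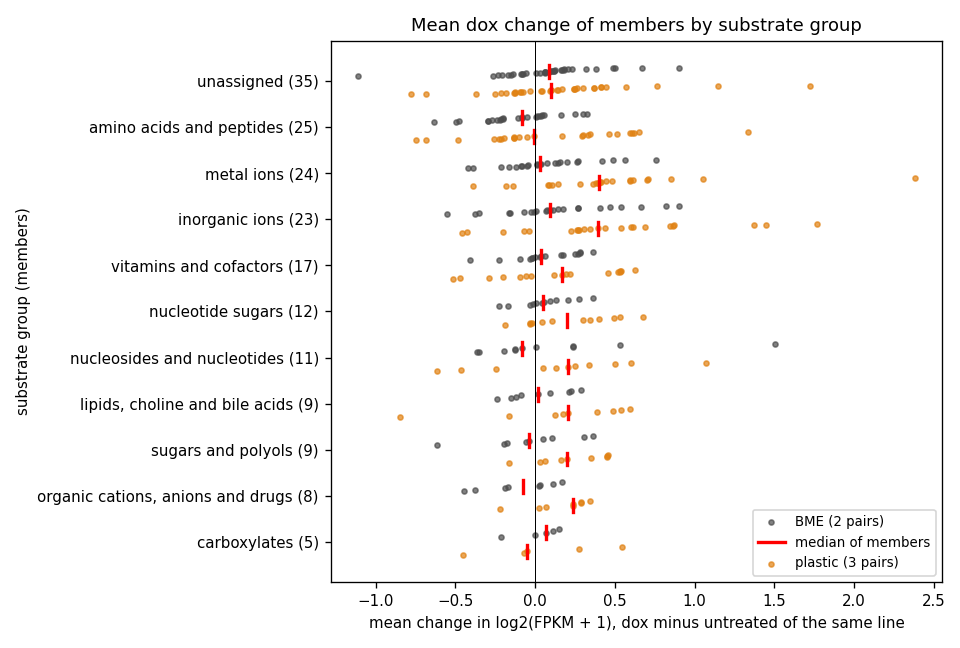
Each point is a member, placed by its mean change in log2(FPKM + 1) over the 2 BME pairs (dark) or the 3 plastic pairs (orange), in rows by substrate group with the number of members, and red ticks mark group medians. The orange medians of the metal ion and inorganic ion rows are at 0.40 and that of amino acids and peptides at -0.01, while all BME medians lie between -0.08 and 0.09.

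Of 17 genes for the sodium pump and transporter partners, 11 reached 1 FPKM in both tables, and 2 of these (Atp1b3, a pump subunit, and Fxyd5, a pump regulator) were higher in all 5 pairs while none was lower or called by limma, beside 8.93% and 8.19% of all genes. At the unadjusted threshold 1 of them was higher in BME and 1 on plastic, where 0.746% and 2.37% of genes were. Of 15 enterocyte markers, 8 reached the minimum and 3, Apob and Mttp among them, were higher in all 5 pairs, beside 8.93% of genes. The medians of the 8 were 0.44, 0.54, 1.07, 0.08 and 0.75, with 0.41 in mock. Among 10 crypt stem markers, 8 reached the minimum. In all 5 pairs 0 of them were higher and 1 (Rnf43) was lower, beside 8.93% and 8.19% of genes. Their medians were -0.50, -0.19, -0.42, -0.19 and -0.06, with -0.21 in mock. Of 8 BMP and TGFβ response genes 4 (Id1, Id3, Smad7 and Pmepa1) were higher in all 5 pairs, beside the same 8.93%, with a median of 0.05 over the list in mock, and Id1 had changes of 1.76 to 3.02 with -0.46 in mock. In the mock pair, Smad4 and Id1 had changes of 0.19 and -0.46 while those of Slc29a3, Slc9a2 and Slc9a4 were 1.61, 1.25 and 1.13. In this single pair, dox and the difference between 2 libraries of a line cannot be told apart.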

How the data were processed

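FPKM values were deposited as 1 table for BME and 1 for plastic, each of 6 libraries. The authors quantified reads with kallisto and normalized with DESeq2, and the submitters' processing notes name build mm9; versions and the annotation are not given in the sources used here. The authors' deposited mean normalized count (a signal) served only to rebuild whole reads, and 88.3 to 90.6% of low values came out whole within 0.05. Deposited fold changes and p-values were not used. Each table was fitted on its own with limma (version 3.58.1, R 4.3.3) on log2(FPKM + 1), two-sided, with a trend, on genes at a mean of at least 0.5 FPKM, with Benjamini-Hochberg adjustment over all genes. In BME, 2 dox libraries were set against 3 untreated libraries and the mock library. Other pseudocounts, filters, a line block, limma-voom on rebuilt reads and leaving out libraries were tried.

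Libraries of 1 line in 1 environment were paired because they share the line. Deviations from the group means, across genes, correlated at 0.48, 0.64 and 0.24 within the 3 plastic pairs. Where only 1 sample stands for a line and treatment, p-values measure the spread between lines. In BME, line 682 gave both an untreated and the mock control and no dox library. The BME p-values thus also hold the spread between those libraries, and line 682 stands only on the control side. Members, substrate groups and gene lists were chosen with earlier results of these data known, and groups come from general knowledge, with 35 members unassigned. Every member moving 1 way in all 5 pairs was named, except 2 that are not reported here. Values were given for the 10 of each direction with the largest smallest change, the 2 most abundant members of each substrate group of 5 or more, any member called, and the 3 largest mock changes. Promoters came from RefSeq.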

Additional observations from a re-analysis of the deposited data

Results flagged for a closer look

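In BME, 23 members were checked for a library apart from the other 3 of the 4 controls, and 3 were found. Chance flags about 1 in 20 groups of genes chosen without their values, but these 23 were chosen by their dox or mock changes, so that this rate does not apply and the mock value of Slc29a3 restates its choice. Slc29a3 had 24.7 FPKM in the mock library of line 682, beside 6.25 to 8.14 in the 3 untreated libraries. Slc6a8 had 45.8 FPKM in the untreated library of line 700, beside 19.2 to 22.4 in the others. Slc23a3 had 11.3 FPKM in the untreated library of line 682, beside 5.37 to 6.37 in the others.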

How the results depend on the processing

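No member was called by limma in BME, on plastic or for their difference under another pseudocount (0.1), no filter, limma-voom on rebuilt reads, without the mock library or with the replicate block by line. The exception was the fit without the plastic dox library of line 700, where Slc35f6 was called (change 2.15, SE 0.26, adjusted p = 0.0467, with 0.445% of genes called), so calls with 1 library left out ranged from 0 to 1 on plastic and from 0 to 0 in BME. At the unadjusted threshold these counts ranged from 0 to 5 in BME, where 0 were left without the untreated library of line 682, 1 without the dox library of line 889, and 5 without the dox library of line 700 or the untreated library of line 889. They ranged from 4 to 11 on plastic, where 4 were left without the dox library of line 889 and 5 without the untreated library of line 560 or of line 889. The replicate block gave 2 in BME, 10 on plastic and 2 for the difference, beside 1.21%, 5.05% and 1.88% of genes, and it changed no call. With 1 pair left out, members with a single direction ranged from 32 to 49 higher and from 8 to 12 lower, with 49 higher (26.8%, beside 16.8% of genes) and 12 lower (beside 17.1%) without plastic line 560, 10 lower (beside 11.0%) without BME line 700, and 32 higher (17.5%, beside 11.1%) and 12 lower (beside 10.4%) without plastic line 889. A change of at least 0.1 in every pair was met by 13 higher members (7.10%, beside 4.86% of genes).

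Fitted changes turned sign for a few named members. In BME with 1 library left out, Slc4a2 ranged from -0.033 (without the dox library of line 889) to 0.62, Slc6a8 from -0.16 (without the dox library of line 700) to 1.10, and Slc25a3 from -0.23 to 0.17 (without the dox library of line 700), with 0.0077 and 0.040 without the untreated libraries of lines 682 and 889. Slc18a1 was at -0.38 in BME with the replicate block, and on plastic ranged from -0.48 (without the dox library of line 560) to 1.09, with -0.054 and -0.17 without the untreated libraries of lines 700 and 889. Slc26a11, at -0.0021 in BME, was at 0.093 with the replicate block and 0.057 without the mock library, and ranged from -0.20 to 0.20 with 1 library left out, where it was above 0 without the untreated library of line 682 or the dox library of line 889. Slc12a8 on plastic ranged from -0.996 to 0.91, above 0 without the untreated library of line 560 or the dox library of line 700. The cause was not tested. The other 374 values of named members kept their direction and their side of the threshold.

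With 2 or 3 dox libraries a group and 1 mock library, small changes could not be resolved, and 10 members had under 10 reads in their lowest library.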
